A study of Mus musculus with 12 samples.

Results

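Cardiac macrophage genes are described here in RNA of mouse cardiomyocytes: 33 genes that mark the resident and monocyte-derived macrophages of the heart. They were taken by name from a list that was chosen with earlier results of these data known. Each was looked up by its Ensembl identifier among the 55335 genes of the deposited tables. All 33 were found. A filter on low counts kept 28 of them among 16932 genes for testing, and the 5 others (Fcgr1, Tyrobp, Trem2, Aif1 and Itgam) are given as levels only.

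Male mice, 7 to 8 weeks old when the diets began, were either wild-type C57BL/6J (WT) or carried the B6.129P2-Apoe tm1Unc/J knockout allele of Apoe in the whole body (ApoeKO). Each genotype received standard chow (CD) or a Western diet high in fat and cholesterol (HFD) for 7 weeks, and RNA of the cardiomyocyte preparation was sequenced. The groups are WT_CD, ApoeKO_CD and ApoeKO_HFD with 3 libraries each, and WT_HFD with 2 of its 3 libraries. The series uses the fat-fed knockout as a mouse model of HFpEF, heart failure in which the ejection fraction is preserved.

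Macrophages are the main resident immune cells of the mouse heart. They live among the cardiomyocytes, clear debris and dead cells, and depend on the cytokine CSF1 acting through its receptor Csf1r. The transcription factor PU.1, the product of Spi1, sets their identity. Long-lived resident cells are known for Lyve1, Folr2, Cbr2, Mrc1 (CD206) and Cd163, whereas Ccr2 marks cells that descend from recent blood monocytes. The labels name these libraries as cardiomyocytes, and the counts do not say which cells of the preparation the macrophage transcripts came from. In such bulk RNA, fewer macrophages and less RNA per macrophage cannot be told apart.

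Among the 11 libraries used, 22130323 to 46424614 counts fell on genes, of which 51.5% to 71.3% belonged to the mitochondrial genome. Markers of the labelled cell type were abundant: 10 cardiomyocyte genes led by Ttn and Myh6 summed to 86688 to 100360 CPM (read counts relative to library size, scaled by the TMM method). WT_HFD replicate 3 held 1347110 counts. Of its counts on 2266 pairs of overlapping genes on opposite strands, 68.8% fell on the non-coding partner, against 0.492% to 0.598% in the others. This library was left out of all comparisons. Nothing in the labels says that replicates are different animals, and every p-value therefore reflects the spread among these libraries only, which may be technical.

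Apoe, the targeted gene and a known product of macrophages, went against the genotype labels on chow. It stood at 2.91, 2.12 and 3.61 CPM in WT_CD replicates 1 to 3, at 18.9 and 8.44 CPM in WT_HFD replicates 1 and 2, at 25.3, 23.9 and 6.93 CPM in ApoeKO_CD, and at 1.94, 3.02 and 3.16 CPM in ApoeKO_HFD. The libraries labelled knockout on chow thus held more Apoe RNA than the libraries labelled wild-type on chow, with no overlap. Counts over the whole gene can include RNA of a disrupted allele. Every group name below means the libraries that carry this label.

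Within each of the 4 groups, the library with the lowest macrophage sum also had the lowest Apoe. The plot of Apoe against the macrophage genes shows this order. In WT_CD the lowest 2 sums were close, at 19.0 and 19.1 CPM. With 2 libraries in WT_HFD and 3 in each other group, the order is a description only. Apoe reached 0.419 to 0.614 CPM per CPM of 31 macrophage genes (all members but Gas6 and Maf) in ApoeKO_CD and 0.492 to 0.838 in WT_HFD. The ratio was 0.0808 to 0.189 in WT_CD and 0.13 to 0.200 in ApoeKO_HFD, so the ranges of the high pair and the low pair did not overlap. WT_CD replicate 1 had 36.0 CPM of the macrophage genes, close to the 38.5 CPM of WT_HFD replicate 1, and its Apoe was 2.91 against 18.9 CPM. Whether a different number of macrophages enters the Apoe levels was not tested.

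**Figure D1:**
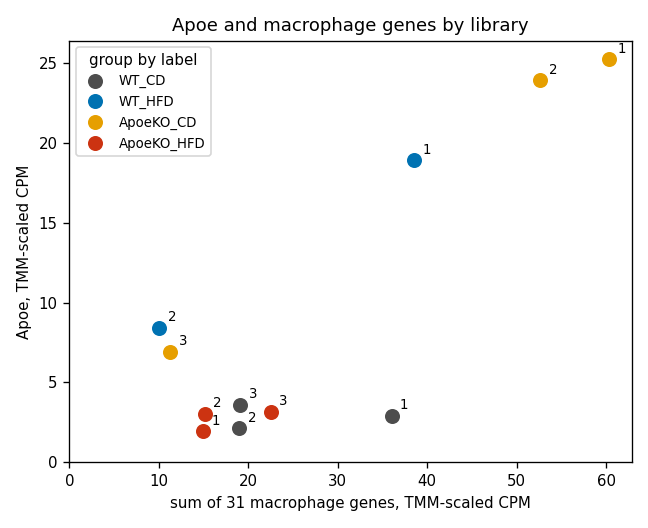
Apoe (vertical axis, TMM-scaled CPM) against the sum of 31 macrophage genes (horizontal axis, TMM-scaled CPM), 1 point per library, coloured by labelled group and numbered by replicate. ApoeKO_CD and WT_HFD libraries hold 6.93 to 25.3 CPM of Apoe, at macrophage sums of 10.1 to 60.3 CPM. WT_CD and ApoeKO_HFD libraries hold 1.94 to 3.61 CPM of Apoe, at macrophage sums of 14.9 to 36.0 CPM.

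PU.1 and other ETS factors are known to bind purine-rich sites with a GGAA core. The letters AGGAAGT, read on both strands (ACTTCCT on the other), were searched in RefSeq windows of GRCm38.p6 from 250 bases before to 50 bases after each start of transcription. Of the 33 members, 25 had such a window. The letters stood in the windows of 10 of these 25 genes (40.0%) and of 10.7% of 27025 genes in all. By window, 11 of 30 (36.7%) held them, against 9.35% of 32851 windows in all. The genes were C1qb, C1qc, Ctss, F13a1, Fcgr1, Folr2, Lyz2, Mrc1, Pf4 and Ptprc. The longer form GAGGAAGT, which contains AGGAAGT, was in 4 of the 30 windows (13.3%; C1qc, Ctss, F13a1 and Pf4) against 3.20% of all. A match is a description of these letters and not a bound site. Whether the letters go with shared variation between the libraries was not tested. Stretches from some of the 10 genes are shown as examples, 5′ to 3′ on the strand of the gene, with the matched letters in capitals. They lie in the minus-strand genes Lyz2 (chr10:117282340-117282398), C1qb (chr4:136886221-136886279), C1qc (chr4:136893077-136893135), F13a1 (chr13:37049217-37049275) and Folr2 (chr7:101857240-101857298) and in the plus-strand gene Mrc1 (chr2:14229177-14229235), all before the RefSeq start.
Lyz2: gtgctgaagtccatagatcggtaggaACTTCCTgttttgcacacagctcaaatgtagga
C1qb: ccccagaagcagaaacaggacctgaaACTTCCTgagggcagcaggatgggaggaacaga
C1qc: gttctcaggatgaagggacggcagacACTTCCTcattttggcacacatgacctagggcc
F13a1: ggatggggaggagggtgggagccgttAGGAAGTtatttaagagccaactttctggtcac
Folr2: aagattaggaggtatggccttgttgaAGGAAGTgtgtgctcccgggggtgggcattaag
Mrc1: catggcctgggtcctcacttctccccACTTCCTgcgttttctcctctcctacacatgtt

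Macrophage RNA was scarce and differed several-fold between libraries of the same label. The 31 members without Gas6 and Maf, a choice made after their values were seen because these 2 genes hardly varied, summed to 36.0, 19.0 and 19.1 CPM in WT_CD, to 38.5 and 10.1 CPM in WT_HFD, to 60.3, 52.6 and 11.3 CPM in ApoeKO_CD, and to 14.9, 15.2 and 22.5 CPM in ApoeKO_HFD. The highest library was 5.99-fold above the lowest, and both were outside the fat-fed knockout group. ApoeKO_CD held the highest 2 libraries and 1 of the lowest 2. ApoeKO_HFD was the most even group with 17.5 ± 4.31 CPM (SD, n = 3), against 24.7 ± 9.80 CPM (SD, n = 3) in WT_CD, 24.3 ± 20.1 CPM (SD, n = 2) in WT_HFD and 41.4 ± 26.4 CPM (SD, n = 3) in ApoeKO_CD. The mean of each group lay inside the range of ApoeKO_CD. With Gas6 and Maf included, the 33 members summed to 37.8 to 94.4 CPM.

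The spread was as wide when mitochondrial counts were set aside. In CPM of the nuclear counts alone, without TMM, the 31 members held 165 in ApoeKO_CD replicate 1 (95% Wilson interval 158 to 172, counting error only), 142 in replicate 2 (134 to 150) and 28.8 in replicate 3 (26.2 to 31.6). WT_HFD replicate 1 held 107 (101 to 112) and replicate 2 held 27.5 (25.1 to 30.2). WT_CD held 97.1, 48.1 and 51.2, and ApoeKO_HFD held 38.4, 41.4 and 63.3. The gaps within ApoeKO_CD and within WT_HFD were far wider than these intervals.

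**Figure D2:**
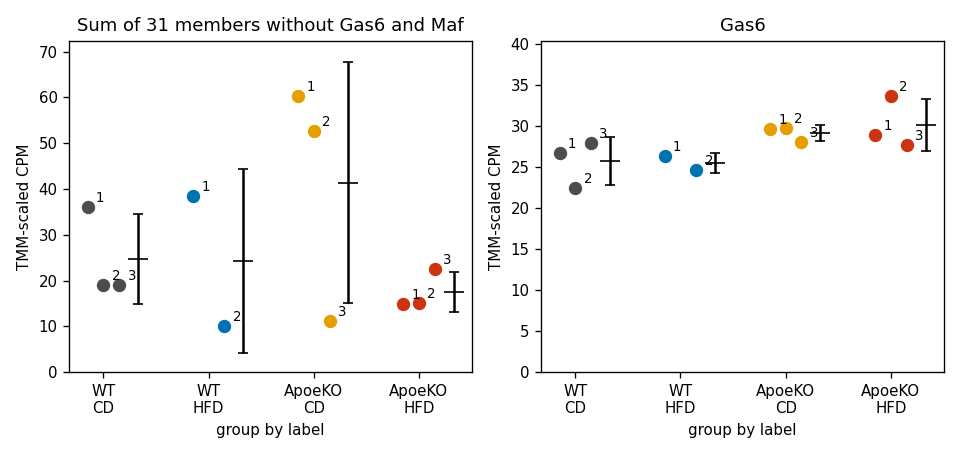
Sum of 31 macrophage genes (left) and Gas6 (right) in TMM-scaled CPM, 1 point per library with its replicate number, by labelled group. The bar beside each group is the mean with 1 SD (n = 3, or 2 for WT_HFD). The sums run from 10.1 to 60.3 CPM and Gas6 from 22.4 to 33.7 CPM.

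Most of the genes moved together. ApoeKO_CD replicates 1 and 2 were among the 4 highest libraries for 26 and 24 of the 28 tested members, WT_HFD replicate 1 for 21 and WT_CD replicate 1 for 20. WT_HFD replicate 2 was among the 4 lowest for 25 members and ApoeKO_CD replicate 3 for 24. ApoeKO_HFD replicates 1 and 2 were among the 4 lowest for 16 and 18. As a description over 11 libraries that share their depth and scaling between genes, the log2 level of Lyz2 correlated at r = 0.96 with the log2 sum of the other members without Gas6 and Maf, Cd163 and Csf1r at 0.95 each and Mrc1 at 0.95. Cd68 (0.44), Ccr2 (0.39) and Gas6 (0.17) followed the sum least.

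**Figure D3:**
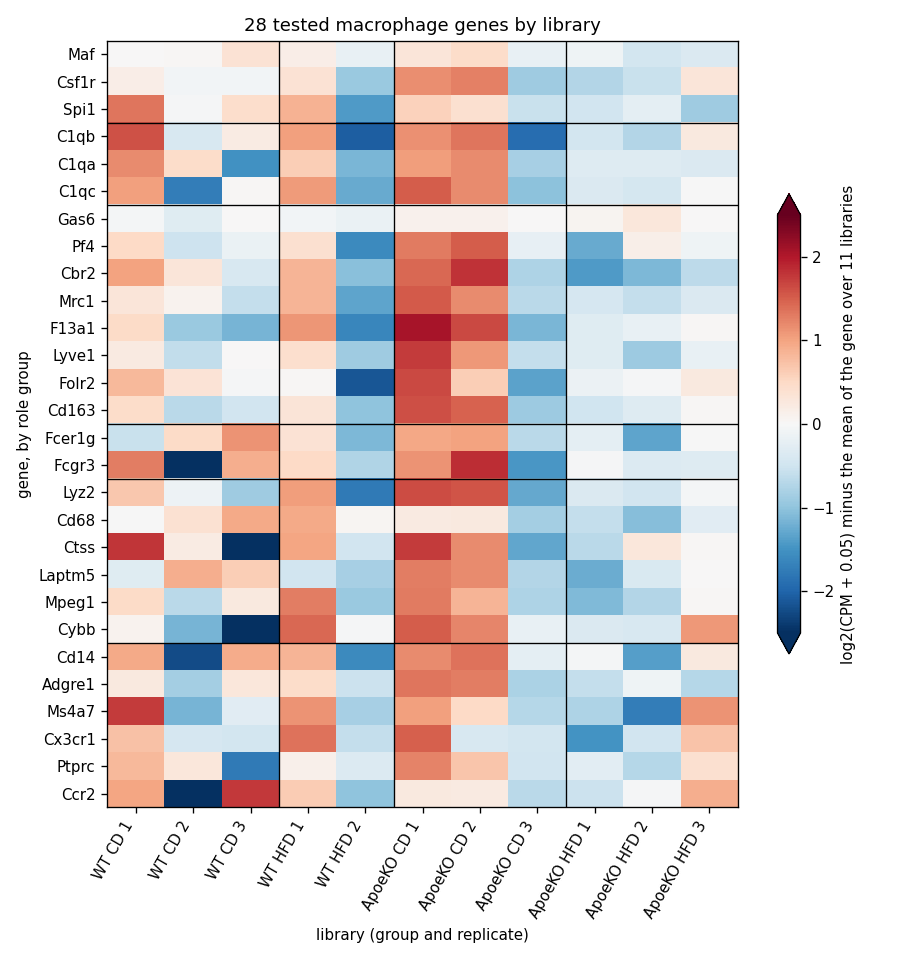
log2(CPM + 0.05) of each of the 28 tested members minus its own mean over 11 libraries (colour scale, limited to 2.5 in either direction), with genes in rows by role and libraries in columns by labelled group. ApoeKO_CD replicates 1 and 2 are above the mean for most genes and WT_HFD replicate 2 and ApoeKO_CD replicate 3 below it, while Gas6 and Maf vary little.

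Of the lineage genes, Csf1r followed the sum closely, and Spi1 (r = 0.75) and Maf (0.67) less so. Csf1r, the CSF1 receptor (ENSMUSG00000024621), stood at 2.06, 1.73 and 1.73 CPM in WT_CD, at 2.36 and 0.935 CPM in WT_HFD, at 4.16, 4.41 and 0.961 CPM in ApoeKO_CD, and at 1.08, 1.23 and 2.25 CPM in ApoeKO_HFD. It was high in ApoeKO_CD replicates 1 and 2 and low in WT_HFD replicate 2 and ApoeKO_CD replicate 3, and all groups overlapped. Maf, a transcription factor of resident macrophages that many other cells also express, stood at 3.57, 3.65 and 4.59 CPM in WT_CD, at 4.03 and 3.12 CPM in WT_HFD, at 4.39, 4.89 and 3.14 CPM in ApoeKO_CD, and at 3.32, 2.58 and 2.76 CPM in ApoeKO_HFD. Its highest library was 1.90-fold above its lowest, against 4.72-fold for Csf1r. Spi1 ranged from 0.0891 CPM in WT_HFD replicate 2 to 0.886 CPM in WT_CD replicate 1.

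The 3 chains of C1q, the recognition molecule of the classical complement pathway and a hallmark product of tissue macrophages, ranged from 7.57-fold (C1qa) to 15.8-fold (C1qb) between libraries. C1qb (ENSMUSG00000036905, chr4:136880129-136886187) stood at 2.81, 0.667 and 1.05 CPM in WT_CD, at 1.89 and 0.178 CPM in WT_HFD, at 2.05, 2.35 and 0.202 CPM in ApoeKO_CD, and at 0.646, 0.522 and 1.08 CPM in ApoeKO_HFD. C1qa stood at 1.99, 1.18 and 0.263 CPM in WT_CD, at 1.31 and 0.356 CPM in WT_HFD, at 1.80, 1.99 and 0.455 CPM in ApoeKO_CD, and at 0.670, 0.672 and 0.651 CPM in ApoeKO_HFD. WT_CD replicate 1 was the highest library for C1qb and shared the top of the C1qa range with ApoeKO_CD replicate 2. C1qc ranged from 0.275 to 3.04 CPM. The 3 chains took 9.29% to 19.3% of the counts of the 31 members, with the highest share in WT_CD replicate 1.

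Of the 8 resident and scavenger genes, 7 followed the sum and Gas6 did not. Gas6, a ligand of the receptors Axl and Mertk that bridges them to dying cells (ENSMUSG00000031451), stood at 26.8, 22.4 and 28.0 CPM in WT_CD, at 26.4 and 24.6 CPM in WT_HFD, at 29.6, 29.8 and 28.0 CPM in ApoeKO_CD, and at 28.9, 33.7 and 27.8 CPM in ApoeKO_HFD. Its whole range was 1.50-fold. Pf4, a chemokine that platelets and resident macrophages make, stood at 0.443, 0.196 and 0.263 CPM in WT_CD, at 0.411 and 0.0668 CPM in WT_HFD, at 0.816, 0.954 and 0.253 CPM in ApoeKO_CD, and at 0.0957, 0.336 and 0.276 CPM in ApoeKO_HFD. Cbr2, a carbonyl reductase known as a mark of resident cardiac macrophages (ENSMUSG00000025150, chr11:120729489-120732114), stood at 0.980, 0.589 and 0.338 CPM in WT_CD, at 0.877 and 0.200 CPM in WT_HFD, at 1.35, 1.75 and 0.253 CPM in ApoeKO_CD, and at 0.144, 0.187 and 0.276 CPM in ApoeKO_HFD. The fat-fed knockout libraries were low for Cbr2, but ApoeKO_CD replicate 3 lay among them.

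The other resident genes ranged widely too. F13a1, the coagulation factor XIII A chain, ran from 0.557 CPM in WT_HFD replicate 2 to 7.85 CPM in ApoeKO_CD replicate 1, a 14.1-fold range. Folr2, folate receptor beta, ran from 0.0223 CPM, which is 1 read, to 0.956 CPM. Mrc1, the mannose receptor, ran from 0.891 to 6.67 CPM. The scavenger receptor Cd163 ran from 0.423 to 2.87 CPM and the hyaluronan receptor Lyve1 from 0.373 to 2.64 CPM. ApoeKO_CD replicate 1 held the highest value of F13a1, Folr2, Mrc1, Cd163 and Lyve1. The resident group without Gas6 took 23.8% of the counts of the 31 members in WT_CD replicate 3 and 38.4% in ApoeKO_CD replicate 1.

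The Fc receptor genes had few counts. Fcer1g, the shared signalling chain of Fc receptors, stood at 0.221, 0.510 and 0.827 CPM in WT_CD, at 0.466 and 0.134 CPM in WT_HFD, at 0.731, 0.755 and 0.202 CPM in ApoeKO_CD, and at 0.287, 0.112 and 0.351 CPM in ApoeKO_HFD. Fcgr3, a low-affinity receptor for IgG, stood at 0.791, 0 and 0.601 CPM in WT_CD, at 0.438 and 0.156 CPM in WT_HFD, at 0.703, 1.19 and 0.0759 CPM in ApoeKO_CD, and at 0.287, 0.224 and 0.225 CPM in ApoeKO_HFD. The 0 in WT_CD replicate 2 allows up to 0.118 CPM. Reads of Fcgr3 may be shared with similar Fc receptor genes. Fcgr1, the high-affinity IgG receptor, had 60 counts over all 11 libraries and Tyrobp, the DAP12 adaptor, had 59. Trem2, a lipid-sensing receptor of lipid-laden macrophages, had 4 counts in all and was at 0 in 8 libraries.

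Among the lysosome and phagocyte genes Lyz2 carried the most counts. Lyz2, lysozyme M (ENSMUSG00000069516, chr10:117277331-117282321), stood at 4.55, 2.59 and 1.50 CPM in WT_CD, at 5.92 and 0.802 CPM in WT_HFD, at 8.95, 8.59 and 1.14 CPM in ApoeKO_CD, and at 2.20, 2.02 and 2.76 CPM in ApoeKO_HFD. The 3 fat-fed knockout libraries lay close together, inside the range of each other group. Its near-identical neighbour Lyz1 held 0 to 0.225 CPM, and reads may be split between the 2 genes. Cd68, a glycoprotein of late endosomes (ENSMUSG00000018774), stood at 1.14, 1.49 and 2.26 CPM in WT_CD, at 2.25 and 1.18 CPM in WT_HFD, at 1.35, 1.35 and 0.607 CPM in ApoeKO_CD, and at 0.741, 0.522 and 0.927 CPM in ApoeKO_HFD. ApoeKO_HFD was below both wild-type groups for Cd68, with no overlap.

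Cybb, the catalytic chain of the phagocyte NADPH oxidase (ENSMUSG00000015340), stood at 0.443, 0.157 and 0 CPM in WT_CD, at 1.21 and 0.401 CPM in WT_HFD, at 1.27, 1.03 and 0.354 CPM in ApoeKO_CD, and at 0.311, 0.299 and 0.927 CPM in ApoeKO_HFD. Ctss, the lysosomal protease cathepsin S, was also at 0 in WT_CD replicate 3 and ran up to 2.31 CPM in WT_CD replicate 1. At the makeup of the pooled libraries, replicate 3 of WT_CD would hold 18.1 reads of Ctss and 11.5 of Cybb, and a count of 0 there allows up to 0.113 CPM. Its mix of members departed most from the pooled makeup, with a chi-square of 9.19 per degree of freedom against 0.861 to 5.34 in the others. Laptm5, a lysosomal membrane protein of blood cells, ran from 0.287 to 1.88 CPM, and Mpeg1, the pore-forming perforin-2, from 0.191 to 1.21 CPM. Aif1 (IBA1), a standard stain for macrophages, had 26 counts in all.

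The surface genes were low throughout. Cd14, the co-receptor for bacterial lipopolysaccharide, stood at 0.759, 0.0392 and 0.752 CPM in WT_CD, at 0.712 and 0.0891 CPM in WT_HFD, at 0.900, 1.03 and 0.303 CPM in ApoeKO_CD, and at 0.359, 0.112 and 0.451 CPM in ApoeKO_HFD. Adgre1, the F4/80 antigen, stood at 0.727, 0.314 and 0.752 CPM in WT_CD, at 0.849 and 0.401 CPM in WT_HFD, at 1.60, 1.55 and 0.329 CPM in ApoeKO_CD, and at 0.383, 0.560 and 0.351 CPM in ApoeKO_HFD. Both were high in ApoeKO_CD replicates 1 and 2. Ccr2, the receptor for the monocyte attractant CCL2, kept another order, with its highest value of 0.902 CPM in WT_CD replicate 3 and a 0 in WT_CD replicate 2. Cx3cr1, the fractalkine receptor, ran from 0.0478 to 0.731 CPM, Ms4a7 from 0.0373 to 0.917 CPM and the leukocyte phosphatase Ptprc (CD45) from 0.226 to 2.19 CPM. Itgam (CD11b) had 47 counts in all.

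Set per length of exon sequence (RPKM from the scaled CPM, mean over 11 libraries), Gas6 was the highest member at 10.9 RPKM. Gas6 did not follow the other members (r = 0.17), and which cells its RNA came from was not tested. Next came Lyz2 at 2.83, C1qb at 1.12, Cd68 at 0.999, C1qa at 0.991 and Ctss at 0.711 RPKM. The ranges of C1qb, 0.164 to 2.59 RPKM, and of Cd68, 0.416 to 1.79 RPKM, overlapped, so their order is within the spread between libraries. Csf1r averaged 0.361 RPKM, Adgre1 0.220, Ccr2 0.0459 and Trem2 0.00193 RPKM.

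Of the 6 comparisons, the diet under the knockout label had the median furthest from 0. Comparing ApoeKO_HFD with ApoeKO_CD, 26 of the 28 tested members had a log2 fold change below 0, with a median of −1.12, against 48.8% of all tested genes and a median of 0.01. No member passed an adjusted p under 0.05 by edgeR's quasi-likelihood test (Benjamini-Hochberg over all genes), where 0.0709% of all genes did, and none passed in DESeq2. An unadjusted p under 0.05 was found for 9 members, all lower, against 1.53% of all genes, or 0.78% counting lower genes only. The groups overlapped for every member, whereas for 9.03% of all genes they did not.

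By role, the 8 resident genes had a median log2 difference of −1.46 in this comparison, with 7 below 0 and 5 at an unadjusted p under 0.05. Cbr2 had the smallest p of the members, at a log2 difference of −2.42 (SE 0.70, adjusted p = 1.00 by edgeR). Lyve1 differed by −1.52 (SE 0.52), Mrc1 by −1.41 (SE 0.58), Pf4 by −1.52 (SE 0.69) and Cd163 by −1.37 (SE 0.55), each with an adjusted p of 1.00 by edgeR. Gas6 was at 0.05 (SE 0.13). The 6 tested lysosome genes had a median of −1.22, with Laptm5 at −1.33 (SE 0.51) and Lyz2 at −1.40 (SE 0.88). The complement chains lay between −1.18 and −0.99. Csf1r was at −1.04 (SE 0.48) and Maf at −0.51 (SE 0.22). Of the surface genes, Adgre1 was at −1.43 (SE 0.54), and Ccr2 was the only one above 0, at 0.33 (SE 0.90).

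Single libraries set the size of this shift. Without ApoeKO_CD replicate 3 the median of the same 28 members was −1.57 and 19 had an unadjusted p under 0.05, against 1.82% of all genes. Without ApoeKO_CD replicate 1 the median was −0.79 and 1 member did. No member passed the adjusted threshold either way.

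**Figure D4:**
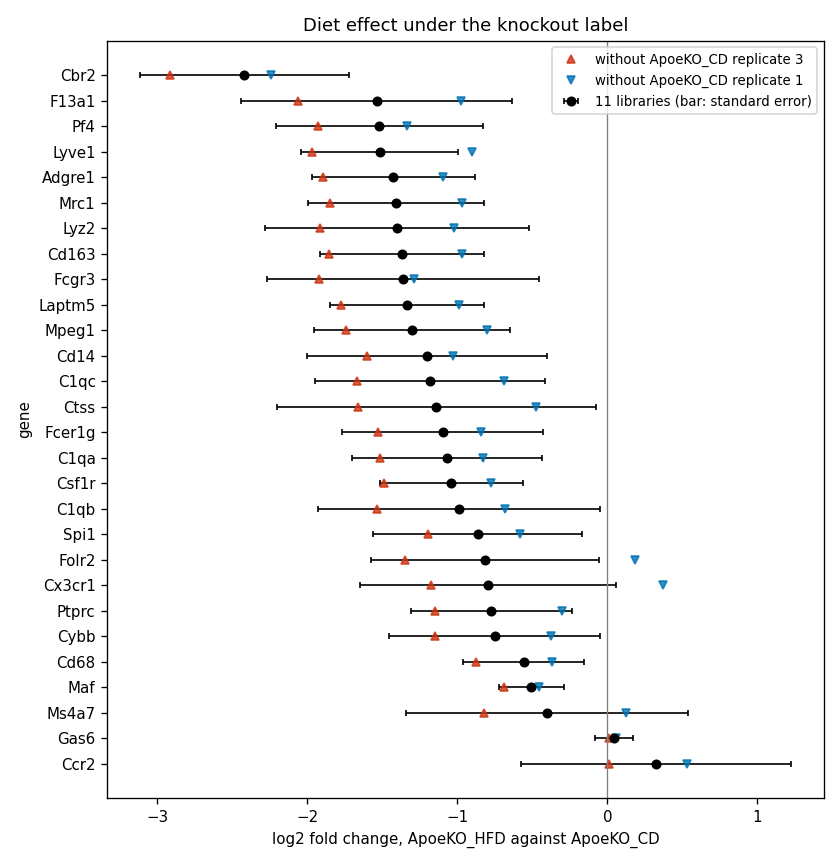
log2 fold change of ApoeKO_HFD against ApoeKO_CD (horizontal axis) for the 28 tested members. Black points are the fit of 11 libraries with its standard error, red triangles the fit without ApoeKO_CD replicate 3 and blue triangles the fit without ApoeKO_CD replicate 1. Of the black points 26 lie below 0, from −2.42 for Cbr2 to 0.33 for Ccr2.

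The diet under the wild-type label gave no common direction. Comparing WT_HFD with WT_CD, 19 members were below 0 and 9 above, with a median log2 difference of −0.21, against 51.3% below 0 and a median of −0.01 over all genes. None passed in edgeR (0.207% of all genes did) or in DESeq2, and 1 member, Cybb, had an unadjusted p under 0.05, against 12.9% of all genes. Cybb was at 1.91 (SE 0.88, adjusted p = 0.358 by edgeR), and WT_CD had a library at 0. Laptm5, at −1.21 (SE 0.59), was the 1 member of 28 whose groups did not overlap, against 24.7% of all genes. The median was −1.35 without WT_HFD replicate 1 and 0.48 without replicate 2, so each of the 2 WT_HFD libraries gave its own sign.

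The genotype on chow was compared between ApoeKO_CD and WT_CD. Here 23 members were above 0, with a median of 0.51, against 48.7% and −0.01 over all genes, and all 8 resident genes were above 0 with a median of 1.04. No member passed in edgeR, where 0.508% of all genes did, or in DESeq2. Unadjusted p-values under 0.05 were found for 3 members, all higher, against 15.9% of all genes, or 7.96% counting higher genes only. These were Cybb at 2.06 (SE 0.81), Lyve1 at 1.15 (SE 0.52) and Cd163 at 1.23 (SE 0.55). The smallest adjusted p was 0.222, for Cybb, by edgeR. Gas6, at 0.18 (SE 0.13), was the 1 member whose groups did not overlap, against 16.6% of all genes. The median was 1.07 without WT_CD replicate 1 and 0.13 without ApoeKO_CD replicate 1.

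The fat-fed knockout was set against the chow-fed wild type, the combined model against its plain control. Of the 28 members 25 were below 0, with a median log2 difference of −0.48, against 50.7% and −0.01 over all genes. None passed in edgeR (0.154% of all genes did) or in DESeq2, and 2 had an unadjusted p under 0.05, both lower, against 14.2% of all genes, or 6.58% counting lower genes only. Cd68 was at −1.13 (SE 0.40, adjusted p = 0.240 by edgeR) and Cbr2 at −1.65 (SE 0.72). The groups did not overlap for 4 members, Spi1, Maf, Cbr2 and Cd68, all lower in ApoeKO_HFD, against 15.6% of all genes and 7.22% counting lower genes only. Leaving out WT_CD replicate 1 brought the median to −0.17.

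The genotype on the fat diet was compared between ApoeKO_HFD and WT_HFD. The median was −0.36 against 0.01 over all genes, with 24 members below 0 against 48.1% of all genes. None passed in edgeR (0.0472% of all genes did) or in DESeq2, and 1 had an unadjusted p under 0.05, against 2.83% of all genes. This was Cd68 at −1.20 (SE 0.43, adjusted p = 1.00 by edgeR). Cd68 and Gas6, the latter higher at 0.24 (SE 0.14), were the 2 members whose groups did not overlap, against 21.7% of all genes. The median was 0.76 without WT_HFD replicate 1 and −1.07 without replicate 2.

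The interaction asked whether the diet difference depended on genotype. It was below 0 for 25 members with a median of −0.82, against 48.5% and 0.02 over all genes, and no member passed in edgeR (0.219% of all genes did) or in DESeq2. An unadjusted p under 0.05 was found for 2 members, against 8.2% of all genes: Cybb at −2.67 (SE 1.13, adjusted p = 0.562 by edgeR) and Cbr2 at −2.14 (SE 1.00). Without WT_HFD replicate 1 the median was 0.034. The 6 comparisons share their groups, so their medians are not separate evidence.

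Genes outside the list whose levels most resembled the macrophage sum were ranked by correlation. Over 9954 protein-coding genes outside the list, all with a mean log2 CPM of 0 or more, Cd74, the MHC class II invariant chain, had the highest correlation of log2 levels with the sum of the 33 members, at r = 0.96 over 11 libraries. It was followed by the iron carrier Trf (0.95), the leukocyte actin bundler Lcp1 (0.91), H2-Eb1 (0.90), Ptprj (0.88), H2-Ab1 (0.88), Dab2 (0.86), H2-Aa (0.85), the scavenger receptor Stab1 (0.83) and Atad5 (0.82). The correlations depend on the sum used. With the 31 members without Gas6 and Maf, Cd74 had 0.97, Trf 0.96, Lcp1 0.93, H2-Eb1 0.90 and Ptprj 0.91. H2-Ab1 had 0.92, Dab2 0.84, H2-Aa 0.92, Stab1 0.82 and Atad5 0.69. All of these are descriptions over libraries that share depth and scaling.

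A further list of 50 macrophage and monocyte genes, of which 35 were tested, held 1 gene that passed in edgeR. It passed in ApoeKO_CD against WT_CD, where 0.508% of all tested genes did. None of the 35 passed in edgeR in the other comparisons. Ctsc, the lysosomal protease cathepsin C, stood at 3.57, 2.83 and 2.56 CPM in WT_CD, at 4.88 and 6.23 CPM in WT_HFD, at 6.81, 8.71 and 4.15 CPM in ApoeKO_CD, and at 4.35, 3.51 and 3.56 CPM in ApoeKO_HFD. It was higher in every ApoeKO_CD library than in every WT_CD library. Ctsc rose by 1.12 on the log2 scale in ApoeKO_CD against WT_CD (SE 0.24, adjusted p = 0.0433 by edgeR, and 0.00492 in DESeq2). The call was lost without WT_CD replicate 3 (adjusted p = 0.144 by edgeR), without ApoeKO_CD replicate 1 (0.141) or 2 (0.203), when only the 2 groups were fitted (0.156), and with all 12 libraries (0.991). DESeq2 also called Ctsc in the interaction, where edgeR gave an adjusted p of 0.0693. Over all tested genes the medians were 0.01 in ApoeKO_HFD against ApoeKO_CD and −0.01 in ApoeKO_CD against WT_CD. For the list as a whole they were −0.57 and 0.20. Its most abundant members, Csf1 with 18.6 to 28.6 CPM and the protease gene Lgmn with 16.1 to 28.3 CPM, ranged over less than every tested member but Gas6 (1.50-fold), though Maf was close to them at 1.90-fold.

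Genes used as markers of other cells of the heart moved with the macrophage sum in part. The counts do not say which cells these transcripts came from, in a preparation rich in cardiomyocyte RNA. The 10 fibroblast genes, led by Gsn and Col3a1, summed to 31, 24.2 and 22.1 CPM in WT_CD, to 41.9 and 37.0 CPM in WT_HFD, to 37.4, 33.7 and 17.6 CPM in ApoeKO_CD, and to 37.6, 25.5 and 31 CPM in ApoeKO_HFD. Their lowest library was ApoeKO_CD replicate 3, where the macrophage sum was low as well, but ApoeKO_HFD was not low. The 11 endothelial genes summed to 427 to 694 CPM, most of it Cd36, with the highest sum in WT_HFD replicate 2, where the macrophage sum was lowest. The 9 pericyte and smooth muscle genes, led by Abcc9, summed to 181 to 280 CPM and the 5 lymphatic endothelial genes, led by Prox1, to 67.5 to 94.3 CPM. The 7 atrial genes, led by Nppa and Myl4, ranged from 9.44 CPM in WT_HFD replicate 2 to 201 CPM in WT_HFD replicate 1. They stood at 76.7 to 136 CPM in WT_CD, at 87.8, 27.1 and 20.2 CPM in ApoeKO_HFD and at 131, 121 and 110 CPM in ApoeKO_CD, so atrial RNA moved with the macrophage sum in WT_HFD and was high in ApoeKO_CD replicate 3, where the macrophage sum was low. None of these genes was at 0 in all libraries. The part of fibroblast and atrial RNA in the macrophage values was not tested. In ApoeKO_HFD against ApoeKO_CD, the fibroblast median was 0.17 with 9 of 10 above 0, the endothelial median 0.29 with 10 of 11 above 0, the pericyte median 0.06, the lymphatic median 0.02, the cardiomyocyte median −0.07 and the atrial median −1.94 with 6 of 7 below 0.

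Other blood cells left little RNA. The neutrophil list of 9 genes summed to 0.137 to 1.62 CPM, the T and NK cell list of 8 to 0.312 to 1.10 CPM, the B cell list of 5 to 0.118 to 0.872 CPM, the mast cell list of 4 to 0.275 to 0.977 CPM, and the erythroid and platelet list of 8 to 0.480 to 1.98 CPM. The dendritic cell list of 5 summed to 2.94 to 5.82 CPM, most of it Zbtb46. The 6 adipocyte genes summed to 0.299 to 1.18 CPM and none was tested. Over these and the other lists of this paragraph and the one before, with the MHC class II and inflammatory genes, 78 genes were tested and none passed in edgeR in any of the 6 comparisons. Of all tested genes, 0.0472% to 0.508% passed there. An unadjusted p under 0.05 by edgeR was found for 4 of the 78 in ApoeKO_HFD against ApoeKO_CD, against 1.53% of all genes. It was found for 11 in WT_HFD against WT_CD (12.9% of all), 10 in ApoeKO_HFD against WT_CD (14.2%) and 12 in ApoeKO_CD against WT_CD (15.9%). ApoeKO_HFD against WT_HFD had 3 (2.83%) and the interaction 5 (8.2%). DESeq2 called Dcn, Myh6 and Tnnt2 in WT_HFD against WT_CD, of 150 genes in all. It called Tnnt2 in ApoeKO_HFD against WT_CD (184 in all), and Pln, Tie1 and Tnnt2 in ApoeKO_CD against WT_CD (381 in all).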

How the data were processed

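RNA of cardiomyocyte preparations was sequenced in 12 libraries. Libraries were made with a stranded SMART-Seq kit, per the labels' protocols. Trimmomatic 0.39, STAR 2.7a, HTSeq 0.13.5 and the build GRCm38 are named, without settings, per the submitters' processing notes. The deposited values are whole-number read counts per gene, not normalized. Ensembl identifiers were matched to GENCODE symbols of GRCm38. All 55335 identifiers name genes, and 55154 had a symbol.

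WT_HFD replicate 3 was left out because its counts lie on the opposite strand, which leaves that group with 2 libraries. Testing used edgeR 4.0.16 (R 4.3.3; TMM, filterByExpr by group, robust quasi-likelihood F test, 1 mean per group, two-sided, 7 residual degrees of freedom), with Benjamini-Hochberg adjustment over 16932 genes in each of 6 comparisons and calls at an adjusted p under 0.05. The script was tested on simulated data. CPM values are scaled by TMM, and RPKM divides them by exon length. A count of 0 allows up to 3 counts.

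The members, role groups and other lists were chosen with earlier results of these data known, so no list test is given and the counts over the members are descriptions. The 12 most abundant genes by role (2 per role, by RPKM), Csf1r, Lyz2, called genes and the smallest p of each comparison are given by library. Of the other lists, called genes or up to 2 of the most abundant are named. Those named from DESeq2 alone, and the genes of the MHC class II and inflammatory lists named at the end, were chosen after their values were seen. Likeness uses log2(CPM + 0.05).

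Libraries with the same replicate number in different groups showed little common deviation: of 15 pairs, 1 had a correlation over 0.1 (lowest −0.18, highest 0.19). No shared source is labelled. Counts of replicates differed beyond sampling noise (chi-square per degree of freedom 24.5 to 189.7). The results were recomputed without the filter, with at least 50 counts in 3 libraries, with RLE factors, DESeq2 1.42.0, nuclear genes only, only the 2 groups compared, all 12 libraries, the replicate number as a block, and each library left out in turn.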

Additional observations from a re-analysis of the deposited data

Results flagged for a closer look

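The library left out, WT_HFD replicate 3, held reads on macrophage genes: 20 of the 33 members had a higher plain CPM there than in each WT_CD library, against 45.1% of the 16932 tested genes, and 15 a higher one than in each of the 11 libraries used, against 41.7%. Fcgr1, Tyrobp, Trem2 and Aif1 are in both tallies but were not among the tested genes, so members and background are unlike sets. At the depth of this library 1 count is 0.742 plain CPM, and 5 of the 20 members passed with 1 count. The tally thus shows no level of the members. It held 183 counts on the members in all, and 9 members were at 0. Csf1r had 41 counts (30.4 plain CPM, against at most 2.06 in WT_CD) and Ptprc had 14 (10.4 against at most 1.61), while C1qa, C1qb and C1qc were all at 0. The column heading inside its table is the one that the table of ApoeKO_CD replicate 1 carries, so which library the values belong to is uncertain. Its counts lie on the strand opposite to the genes, so these values are not levels of the macrophage transcripts in the same sense as elsewhere, and what the reads stand for was not tested.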

How the results depend on the processing

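No member was called in any of the 6 comparisons in edgeR, with RLE factors, DESeq2, the stricter filter, nuclear genes only, the 2 groups alone (which has no interaction), all 12 libraries or any library left out. Without a filter 1 member was called in ApoeKO_HFD against ApoeKO_CD (Cbr2, −2.40) and 1 in ApoeKO_CD against WT_CD (Cybb, 2.12). Over the members that passed the filter in each fit, leaving out 1 library at a time gave medians of −1.60 to −0.79 in ApoeKO_HFD against ApoeKO_CD, −1.35 to 0.48 in WT_HFD against WT_CD, −0.79 to −0.18 in ApoeKO_HFD against WT_CD, 0.13 to 1.09 in ApoeKO_CD against WT_CD, −1.07 to 0.76 in ApoeKO_HFD against WT_HFD and −1.53 to 0.034 for the interaction. The extremes of both comparisons with WT_HFD and the upper end of the interaction came from leaving out a WT_HFD library. The remaining one is then assumed to vary like the other groups. The cause of these differences between libraries was not tested.

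The labels name no pairing of libraries by number, and the correlations between same-numbered libraries cannot exclude one. With the replicate number as a block the medians were −0.98, −0.32, −0.38, 0.55, −0.03 and −0.66 in the order just given, and no member was called.

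Counts over all genes moved more. In the same order edgeR called 12, 35, 26, 86, 8 and 37 genes, the block 9, 19, 14, 61, 7 and 27, DESeq2 17, 150, 184, 381, 25 and 73, no filter 26, 272, 296, 475, 49 and 105, and all 12 libraries 1, 1, 0, 3, 1 and 8. Without WT_CD replicate 2 the counts were 1019 in WT_HFD against WT_CD, 1304 in ApoeKO_HFD against WT_CD and 1801 in ApoeKO_CD against WT_CD. Depth limits Fcgr1, Tyrobp, Trem2, Aif1 and Itgam, with 4 to 60 counts each over 11 libraries.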

Other observations

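MHC class II genes, which display antigen on macrophages, dendritic cells and B cells, had levels that followed the macrophage sum. Cd74 stood at 6.96, 2.79 and 3.35 CPM in WT_CD, at 9.59 and 1.76 CPM in WT_HFD, at 11.9, 10.8 and 2.38 CPM in ApoeKO_CD, and at 2.42, 2.43 and 2.93 CPM in ApoeKO_HFD. H2-Ab1 ran from 0.405 CPM in ApoeKO_CD replicate 3 to 4.95 CPM in ApoeKO_CD replicate 1. The 7 genes of the list summed to 26.8, 22.2 and 5.21 CPM in ApoeKO_CD and to 5.48, 5.71 and 7.51 CPM in ApoeKO_HFD. All 6 tested genes were below 0 in ApoeKO_HFD against ApoeKO_CD, against 48.8% of all tested genes. Their median log2 difference was −1.39, against 0.01 over all genes. An unadjusted p under 0.05 by edgeR was found for 2, against 1.53% of all genes, and none passed in edgeR or DESeq2.

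Genes of macrophage signals followed the sum in part. Cxcl2, a chemokine that attracts neutrophils, stood at 1.83, 0.863 and 0.714 CPM in WT_CD, at 2.00 and 0.200 CPM in WT_HFD, at 1.97, 1.91 and 0.126 CPM in ApoeKO_CD, and at 0.311, 0.485 and 0.576 CPM in ApoeKO_HFD. Il1b, the cytokine interleukin-1 beta, ran from 0 in WT_CD replicate 3 to 1.15 CPM in ApoeKO_CD replicate 2. Tgfb1, the most abundant gene of the list, varied less, from 2.20 to 5.0 CPM. All 13 tested genes of the list were below 0 in ApoeKO_HFD against ApoeKO_CD, against 48.8% of all tested genes. Their median was −1.16, against 0.01 over all genes. An unadjusted p under 0.05 by edgeR was found for 1, against 1.53% of all genes, and none passed in edgeR or DESeq2. The list summed to 14.3, 13.8 and 5.01 CPM in ApoeKO_CD and to 7.51, 5.90 and 6.79 CPM in ApoeKO_HFD.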
